A study of Mus musculus with 16 samples.

Results

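The pyruvate dehydrogenase complex, its regulators and the carriers that feed it were followed here as 10 genes, chosen by name for their function and not by their values. They are the kinases Pdk1, Pdk2, Pdk3 and Pdk4, the phosphatase catalytic subunit Pdp1, the enzyme subunits Pdha1, Pdhb and Dlat, and the carrier subunits Mpc1 and Mpc2. All 10 were among the 23946 genes measured. Pyruvate made from glucose and lactate enters mitochondria through a carrier built from Mpc1 and Mpc2, and the dehydrogenase complex converts it to acetyl-CoA for the tricarboxylic acid cycle. The kinases switch the complex off by phosphorylating its E1 alpha subunit, encoded by Pdha1, and the phosphatases switch it on again. In the heart this switch sets how much glucose carbon is oxidised relative to fatty acids, and Pdk4 is known as a kinase that is induced by fasting and by fatty acid-activated PPAR receptors.

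The samples were free walls of the right ventricle (RV) and left ventricle (LV) of adult male FVB mice aged 10 to 13 weeks, after pulmonary artery banding, which narrows the outflow of the RV and was used to bring about RV failure, or after a sham operation. Polyadenylated RNA was sequenced in 4 libraries for each of 4 groups, namely sham RV, banded RV, sham LV and banded LV. The LV of banded mice was not itself banded. Samples labelled PS were read as banded, because the protocols name banding and sham surgery only. The labels do not say whether an RV and an LV library with the same number came from the same mouse, nor whether each library is a separate mouse, so p-values measure the spread between libraries, and the time from surgery to sampling is not given in the sources used here.

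Levels are FPKM, fragments scaled to transcript length and to the mapped fragments of the library, which can be compared between genes. Differences are on the scale of log2(FPKM + 1), which understates the change of low genes. A gene is said to have risen or fallen only where limma's adjusted p was under 0.05 in the same direction both on the deposited values and after each library was rescaled to a common median ratio. The scale factors were 1.22 to 1.28 in 5 libraries, all banded, in which the ribosomal RNA precursor Rn45s was listed at 0, and 0.840 to 1.02 in the other 11. Those 5 were RV PS_9561 and PS_9564 and LV PS_9552, PS_9553 and PS_9561. Estimated depth was lowest in the sham RV, at 333836 to 1420090 fragments per library, against 2063970 to 8825900 in the other groups. The 7 cardiomyocyte markers summed to 26397 to 29213 FPKM in sham RV, 16902 to 24121 in banded RV, 17744 to 28017 in sham LV and 36249 to 44555 in banded LV. Skeletal muscle markers summed to at most 7.86 FPKM, while pancreatic islet markers reached 2134 FPKM in sham RV and 2085 in sham LV, against at most 154 in banded RV and 58.8 in banded LV, and the part of these cells or of depth in the results was not tested. In these bulk samples fewer cells of a type and less RNA per cell cannot be told apart.

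Upstream sequence is shown for the 3 members that changed in the banded RV. Each line gives the 250 bases before the annotated start, 5′ to 3′ on the gene's strand, from RefSeq on GRCm38.p6, a later build than the mm9 used for the expression values. Capitals mark matches to the searched motifs. The Pdk1 window, the first of its 2 entries, is chr2:71872974-71873223 on the plus strand, the Pdk4 window chr6:5496279-5496528 on the minus strand and the Mpc2 window chr1:165461010-165461259 on the plus strand.
Pdk1: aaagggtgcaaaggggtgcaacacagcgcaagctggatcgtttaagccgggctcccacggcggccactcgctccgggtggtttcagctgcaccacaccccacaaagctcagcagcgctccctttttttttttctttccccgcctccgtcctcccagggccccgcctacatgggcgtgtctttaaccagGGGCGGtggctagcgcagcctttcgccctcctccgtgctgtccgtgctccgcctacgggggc
Pdk4: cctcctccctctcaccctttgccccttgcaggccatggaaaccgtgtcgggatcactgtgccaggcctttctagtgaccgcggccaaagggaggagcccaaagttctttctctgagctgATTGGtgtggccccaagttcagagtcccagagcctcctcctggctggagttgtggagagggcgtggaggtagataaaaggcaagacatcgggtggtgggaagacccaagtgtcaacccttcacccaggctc
Mpc2: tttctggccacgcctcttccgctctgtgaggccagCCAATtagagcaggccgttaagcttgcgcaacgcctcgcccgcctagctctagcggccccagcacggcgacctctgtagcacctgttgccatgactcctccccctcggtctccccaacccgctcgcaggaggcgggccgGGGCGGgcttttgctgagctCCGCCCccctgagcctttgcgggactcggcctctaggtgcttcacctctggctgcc
The motifs, searched on both strands, were the nuclear receptor core AGGTCA, the estrogen-related receptor core AAGGTCA (which contains the former), the ACGTG form of the hypoxia response core, the forkhead core GTAAACA, the GC box GGGCGG, the CCAAT box and the TATA box TATAAA. The GCGTG form of the hypoxia response core was not searched or counted over all windows. Its letters are in each of the 3 windows shown, on either strand, and are not in capitals. The Pdk1 window held 1 GC box, 62 bases before the start. The Pdk4 window held 1 CCAAT box on the opposite strand, at base -131. The Mpc2 window held GC boxes at -76 and -56 and a CCAAT box at -215. Neither is an uncommon word: a GC box occurred in 32.74% and a CCAAT box in 33.85% of all 32851 windows of this length. The nuclear receptor, estrogen-related receptor, ACGTG, forkhead and TATA letters were in none of these 3 windows. They occurred in 14.02%, 4.079%, 16.57%, 3.166% and 12.37% of all windows, and a match or its absence describes these letters only.

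The kinases did not move together. In the banded RV, Pdk4 was lower and Pdk1 was higher than in the sham RV, and Pdk4 was also lower in the banded LV. Across the members, 3 of 9 tested changed in the RV, Pdk1 upward and Pdk4 and Mpc2 downward, against 15.5% of all 12100 genes tested (10.5% up and 4.93% down). In the LV 1 of 9, Pdk4, changed, against 2.74% of all genes (2.44% up and 0.298% down). Counted by libraries that did not overlap on the deposited values, the RV had 1 member up (Pdk1) and 2 down (Pdk2 and Pdk4), against 12.6% and 5.07% of all genes. The LV had 3 up (Pdhb, Mpc1 and Mpc2) and 1 down (Pdk4), against 22.2% and 0.942%.

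Pdk4 was at 191, 109.6, 156 and 180.2 FPKM in the sham RV libraries and at 27.1, 78.5, 45.5 and 58.8 in the banded ones. Every banded library was below every sham library. The difference was -1.65 (SE 0.33, adjusted p = 0.00347, limma), 0.319-fold, and -1.84 after rescaling (adjusted p = 0.00101). In the LV, Pdk4 was at 209, 136, 140.2 and 122 FPKM in sham libraries and at 42.0, 113, 67.6 and 42.3 in banded ones, again without overlap. There the difference was -1.27 (SE 0.33, adjusted p = 0.0164, limma), 0.413-fold, and -1.68 after rescaling (adjusted p = 0.0135). The LV call was the less secure: the adjusted p rose to 0.0512 without sham library 1 and to 0.0633 without banded library PS_9552, and it was 0.0515 with TPM scaling. The effect in the RV minus that in the LV was -0.38, with a 95% interval of -1.35 to 0.60 (adjusted p = 0.746, limma), so the data do not show that the fall differed between ventricles, nor that it was equal.

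Pdk1, the kinase known as a target of the hypoxia-inducible factor, rose in the banded RV. It was at 30.8, 27.3, 26.4 and 28.6 FPKM in sham RV libraries and at 45.2, 50.6, 64.4 and 80.6 in banded ones. The sham libraries were close together and all banded libraries lay above them. The difference was 1.03 (SE 0.18, adjusted p = 0.00178, limma), 2.04-fold, and 0.84 after rescaling (adjusted p = 0.000303). In the LV it was at 45.2, 38.1, 43.8 and 57.1 FPKM in sham and 63.6, 60.9, 68.1 and 46.8 in banded libraries, which overlapped. The LV difference of 0.37 (adjusted p = 0.179, limma) was -0.03 after rescaling. The test of RV effect minus LV effect gave 0.66 as deposited (adjusted p = 0.167) and 0.87 after rescaling (adjusted p = 0.00922), so it did not pass on both scales. It also passed with TPM scaling (1.34, adjusted p = 0.0173), with quantile normalization (1.13, adjusted p = 0.00567) and on rescaled values corrected for transcript length and GC content (0.59, adjusted p = 0.0431). With rescaled values alone these are 4 of 30 alternatives, each on 1 scale only. In the other 26 the difference was not called, among them every fit with 1 library left out (0.51 to 0.78). The calls of Pdk1 and Pdk4 in the RV held under each alternative tried, including the fit without the 5 libraries with Rn45s at 0.

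Pdk2, the most abundant kinase transcript in every library, did not pass on both scales. Sham RV libraries had 247, 267, 245 and 268 FPKM and banded ones 203, 173, 170.1 and 241, without overlap. The difference was -0.40 (adjusted p = 0.102, limma) as deposited and -0.59 after rescaling (adjusted p = 0.0361). In the LV it was at 230.1, 219, 204 and 268 FPKM in sham and 344, 205, 275 and 322 in banded libraries, a difference of 0.30 (adjusted p = 0.243, limma) that was -0.11 after rescaling. Pdk3, the kinase least expressed here, lay between 0 and 1.33 FPKM, was listed at 0 in 5 libraries and was too low to be tested. Sham RV libraries listed it at 0, 0, 0.874 and 0 FPKM and banded RV libraries at 1.07, 0.323, 0.263 and 0.799.

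**Figure D1:**
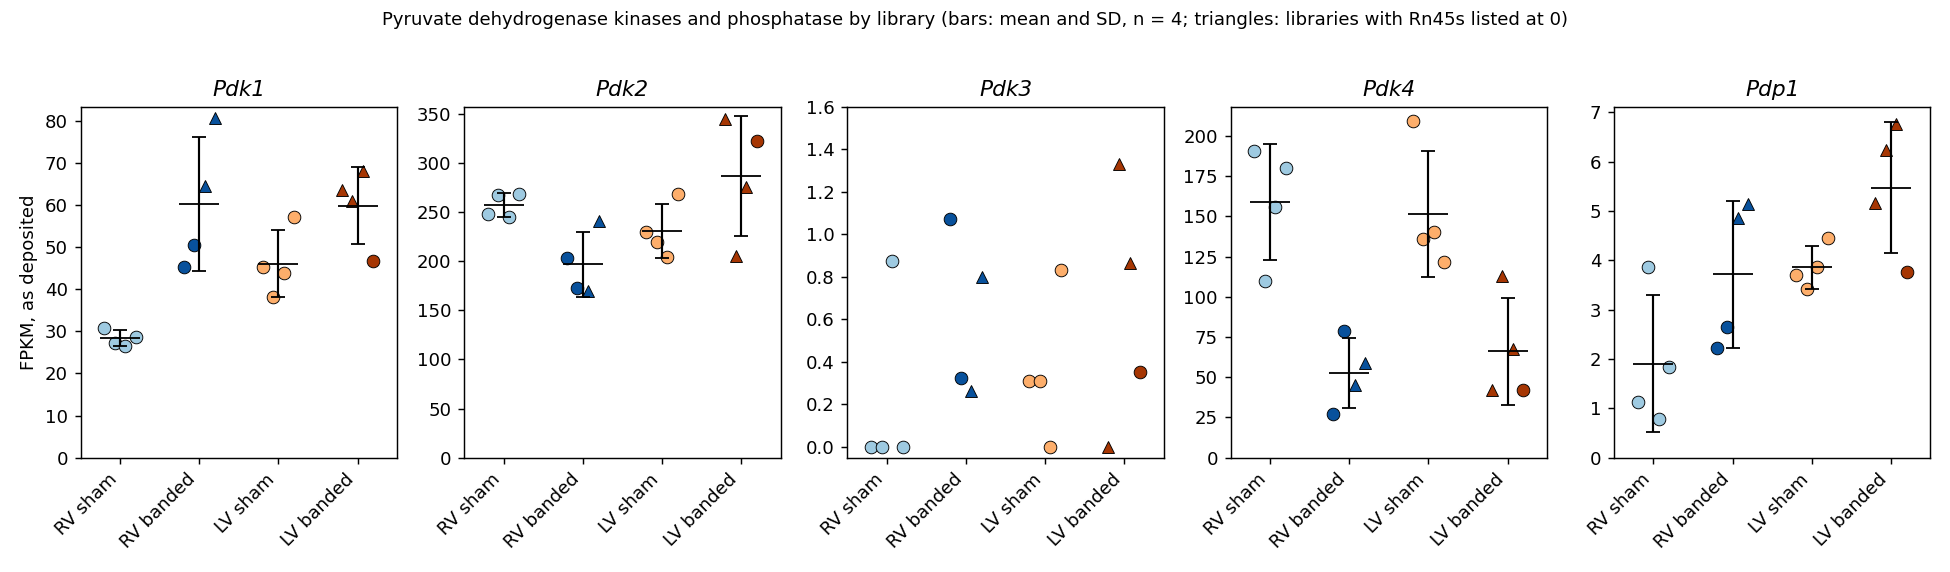
FPKM of Pdk1, Pdk2, Pdk3, Pdk4 and Pdp1 in each library of the 4 groups on linear axes, with the group mean and SD (n = 4; for Pdk3 the points alone). Triangles are libraries with Rn45s listed at 0. Pdk4 is lower in the banded libraries of both ventricles, and Pdk1 is 45.2 to 80.6 FPKM in the banded RV against 26.4 to 30.8 in the sham RV.

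As a share of the summed FPKM of the 4 kinases, Pdk1 went from 6.38% ± 0.351 (SD, n = 4) in sham RV to 19.3% ± 3.26 in banded RV, and from 10.8% ± 1.57 in sham LV to 14.5% ± 2.34 in banded LV. Pdk4 went from 35.5% ± 5.86 to 16.9% ± 6.71 in the RV and from 35.3% ± 6.55 to 16.4% ± 9.38 in the LV. Pdk2 held most of the sum in each group, at 58.1% in sham RV, 63.6% in banded RV, 53.9% in sham LV and 68.9% in banded LV. On the deposited values the sum itself was 444 ± 34.5 FPKM in sham RV and 309.9 ± 48.9 in banded RV. It was 428 ± 46.3 in sham LV and 413 ± 28.4 in banded LV. The sum was not rescaled or tested. Scale factors were 0.871 to 1.02 in sham RV, 0.896 to 1.26 in banded RV, 0.840 to 0.974 in sham LV and 0.976 to 1.28 in banded LV. These sums therefore cannot show that the total was unchanged in the LV.

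**Figure D2:**
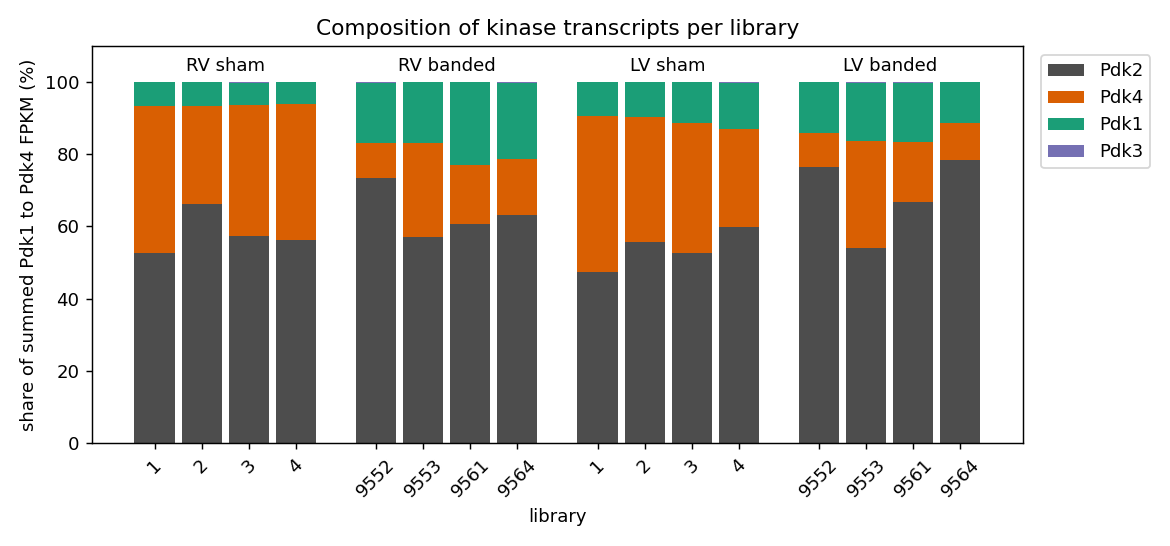
Percent of the summed FPKM of Pdk1 to Pdk4 that each kinase held, 1 stacked bar per library. Pdk1 held 16.4 to 23.0% in the banded RV and 5.999 to 6.77% in the sham RV.

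Ratios taken within a library do not depend on its scale. They can still depend on how a library treats transcript length and GC content, and they were not recomputed with that correction. On rescaled values with it, the RV differences were -0.34 for Pdk2, 0.07 for Pdha1, 0.63 for Pdk1 and -2.06 for Pdk4. Without it they were -0.59, 0.30, 0.84 and -1.84. Summed kinases to Pdha1, the subunit they phosphorylate, was 1.93 to 3.24 in sham RV and 1.06 to 1.42 in banded RV, with a geometric mean of 2.58 against 1.27. Pdk4 to the sum of the other kinases had a geometric mean of 0.546 in sham RV and 0.192 in banded RV, and Pdk2 to Pdha1 of 1.49 and 0.807. Each of these 3 ratios separated banded from sham RV libraries (exact two-sided permutation p = 0.0286, the smallest that 4 against 4 allows). In the LV summed kinases to Pdha1 had a geometric mean of 1.56 in sham and 1.11 in banded libraries, and Pdk4 to the other kinases of 0.540 and 0.177, both with overlap (exact permutation p = 0.0571 each). No ratio passed after Benjamini-Hochberg adjustment over the 12 tests, where the lowest adjusted p was 0.114. With 0.0286 as the smallest p, none could pass unless most of the 12 tests reached it. The adjusted result therefore cannot decide on any single ratio.

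Pdp1, the phosphatase catalytic subunit that reverses the kinases' action, was low in all groups. Its FPKM was 1.14, 3.87, 0.787 and 1.84 in sham RV libraries and 2.22, 2.65, 4.85 and 5.14 in banded ones, and sham library 2 lay within the banded range. The difference of 0.75 (SE 0.30, adjusted p = 0.0871, limma; 0.60 and 0.116 after rescaling) did not pass. LV libraries had 3.70, 3.43, 3.87 and 4.45 FPKM in sham and 5.15, 6.23, 6.77 and 3.76 in banded mice, a difference of 0.39 (adjusted p = 0.393, limma). These values rest on an estimated 2.25 to 220 fragments per library.

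Among the enzyme subunits, none passed on both scales in either ventricle. Pdha1, encoding E1 alpha, was at 168, 209, 168 and 147 FPKM in sham RV libraries and 194, 215, 265 and 306 in banded ones, a difference of 0.49 (SE 0.18, adjusted p = 0.0634, limma) and 0.30 after rescaling (adjusted p = 0.137). Here too sham library 2 was the one inside the banded range. That library was the shallowest of all 16, at an estimated 333836 fragments, and held the lowest sham RV value of Pdk4, Mpc1 and Mpc2 and the highest of Pdp1 and Pdha1. Without it 5 members were called in the RV in place of 3, with Pdp1 at 1.03 (adjusted p = 0.0161, limma) and Pdha1 at 0.58 (adjusted p = 0.0439) added. In the LV, Pdha1 was at 236 to 322 FPKM in sham and 291 to 429 in banded libraries (difference 0.44, adjusted p = 0.103, limma; 0.03 after rescaling).

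Pdhb, which encodes E1 beta, the partner of Pdha1 in the E1 component, was at 112 to 117 FPKM in sham RV and spread to 92.6 to 158 in banded RV (difference 0.07, 95% interval -0.25 to 0.39). In the LV it was at 140.04, 111, 118 and 144 FPKM in sham and 199, 180.5, 170.1 and 175 in banded libraries, without overlap. That LV difference of 0.50 (adjusted p = 0.0349, limma) was 0.10 after rescaling (adjusted p = 0.735) and so was not called. Dlat, the E2 acetyltransferase core, was at 42.3 to 48.1 FPKM in sham RV, 37.6 to 68.0 in banded RV, 40.2 to 55.1 in sham LV and 53.2 to 74.5 in banded LV. Its differences were 0.13 in the RV (95% interval -0.23 to 0.49) and 0.43 in the LV (0.07 to 0.80, adjusted p = 0.1001, limma). The ratio of Pdha1 to Pdhb had a geometric mean of 1.498 in sham RV and 2.001 in banded RV (exact permutation p = 0.0571, adjusted p = 0.114), against 2.15 in sham LV and 2.05 in banded LV.

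The carrier subunit Mpc2 fell in the banded RV, whereas its values in the LV were higher in banded than in sham mice. It was at 305, 176, 302 and 278 FPKM in sham RV libraries and 146, 112, 183 and 135 in banded ones. Sham library 2 lay just below banded library PS_9561, and the other sham libraries were above all banded ones. The RV difference was -0.86 (SE 0.19, adjusted p = 0.00681, limma), 0.550-fold, and -1.06 after rescaling (adjusted p = 0.00106). In the LV the libraries had 139, 129, 154 and 172 FPKM in sham and 281, 272, 213 and 211 in banded mice, with no overlap. The LV difference of 0.71 (adjusted p = 0.0214, limma) was 0.30 after rescaling (adjusted p = 0.373) and was not called. The RV effect minus the LV effect was -1.57 (SE 0.27, adjusted p = 0.00260, limma) and -1.36 after rescaling (adjusted p = 0.00735). Mpc2 was the only member of the 9 for which that difference was called on both scales, against 3.98% of all genes tested (0.529% up and 3.45% down). The same difference was called, also negative, for 2 of the 7 cardiomyocyte markers, Myl2 (-2.15) and Tnni3 (-2.18), and for 1 of 3 tested erythroid markers, Hba-a2 (-2.57), all named after their values were seen. Of 5 tested atrial markers, whose median difference was 1.47, it was called for 1, also negative. For the other 5 cardiomyocyte markers it was not called and ran from -0.88 for Myh6 to 0.22 for Ryr2. The part of these markers in the Mpc2 result was not tested.

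With TPM scaling the RV difference of Mpc2 was -0.37 (adjusted p = 0.213, limma) and the difference between ventricles -0.88 (adjusted p = 0.115). In that scaling the small RNA entry Mir6236 held 21.3 to 59.7% of a library's FPKM sum. Without the 5 libraries with Rn45s at 0 the RV difference of Mpc2 was -1.01 (adjusted p = 0.0418), and the difference between ventricles, with 1 banded LV library left and assumed to vary like the others, was -1.52 (adjusted p = 0.154). Mpc2 and Mpc1 have the shortest transcripts of the members, at 1025 and 961 bases. With rescaled values corrected in each library for transcript length and GC content, Mpc2 differed by -0.75 in the RV (adjusted p = 0.00118) and by -0.90 between ventricles (adjusted p = 0.0144), and both remained called.

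Mpc1, the other subunit, was at 43.6, 20.9, 48.4 and 47.9 FPKM in sham RV and 4.02, 29.3, 31.9 and 23.3 in banded RV, where library PS_9552 stood far below the rest. The RV difference of -1.07 (SE 0.46, adjusted p = 0.111, limma; -1.26 and 0.0518 after rescaling) did not pass, and without that library it was -0.44 (adjusted p = 0.3002). In the LV the sham libraries had 29.5, 25.0, 29.5 and 19.6 FPKM and the banded ones 36.8, 80.4, 67.8 and 46.6, which did not overlap (difference 1.08, adjusted p = 0.121, limma). The effect in the RV minus that in the LV was -2.15 (95% interval -3.53 to -0.78, adjusted p = 0.0608, limma). It passed without sham RV library 2, at -2.43 (adjusted p = 0.0287). Mpc1 thus had the signs of Mpc2 in both ventricles, with larger standard errors. Mpc1 rests on an estimated 5.31 to 541 fragments per library. The ratio of Mpc1 to Mpc2 had a geometric mean of 0.147 in sham RV and 0.121 in banded RV (exact permutation p = 1), and of 0.173 and 0.228 in the LV.

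**Figure D3:**
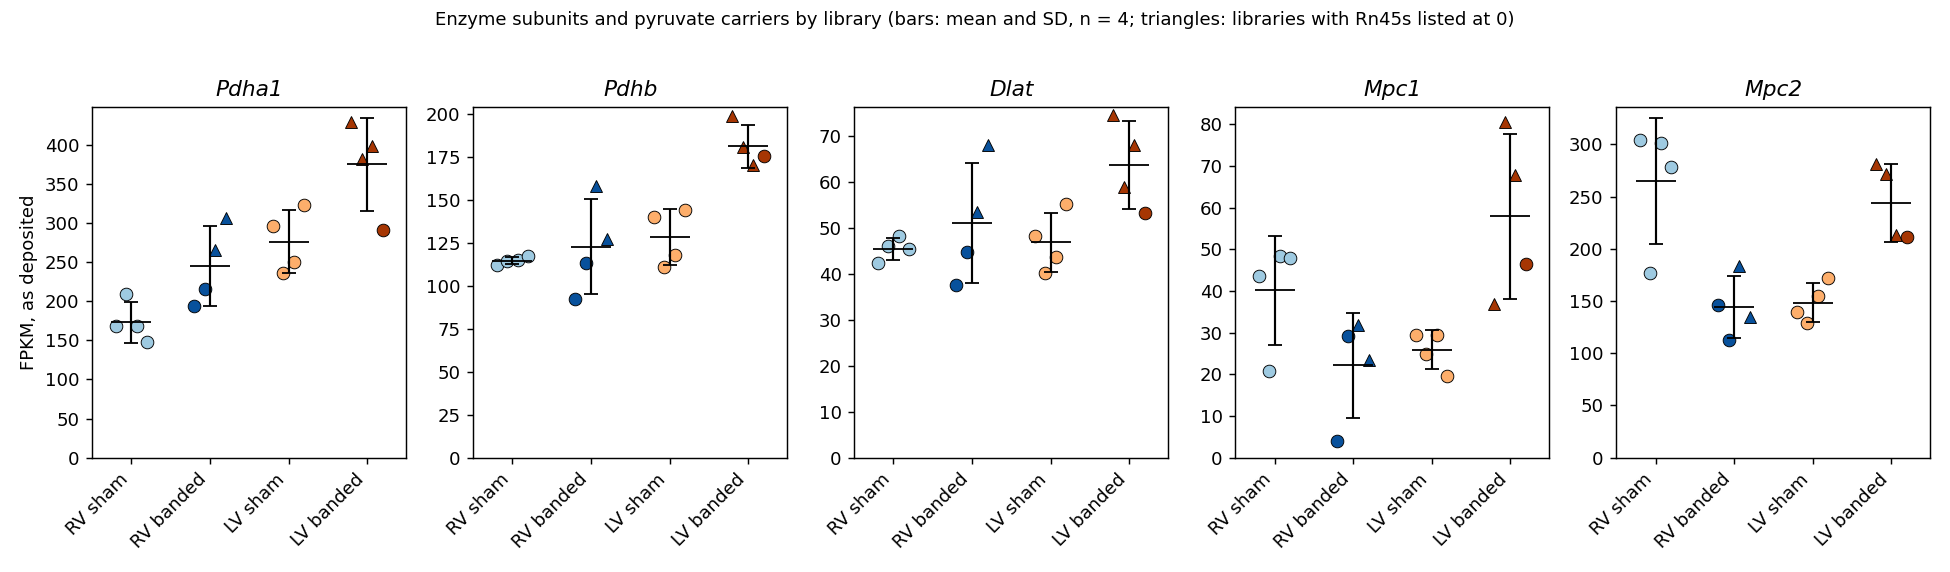
FPKM of Pdha1, Pdhb, Dlat, Mpc1 and Mpc2 in each library of the 4 groups on linear axes, with the group mean and SD (n = 4), and triangles for libraries with Rn45s listed at 0. Mpc2 is 112 to 183 FPKM in the banded RV and 211 to 281 in the banded LV.

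The ventricles of sham mice differed in 3 members. Mpc2 was higher in the RV than in the LV, at 265 ± 60.4 against 149 ± 18.5 FPKM (SD, n = 4 each), while Pdha1 was lower, at 173 ± 25.9 against 276 ± 40.4, and Pdk1 was lower, at 28.3 ± 1.90 against 46.0 ± 7.96. The RV minus LV differences were 0.81 for Mpc2 (adjusted p = 0.0303, limma), -0.67 for Pdha1 (adjusted p = 0.0421) and -0.67 for Pdk1 (adjusted p = 0.0469), none with overlap. These 3 of 9 stand against 3.88% of all genes tested (2.55% up and 1.33% down), and groups did not overlap for 6.40% upward and 5.04% downward of all genes. The calls were fragile: Mpc2 was 0.23 with TPM scaling (adjusted p = 0.501), and with only the sham libraries in the fit the adjusted p was 0.0790 for Mpc2, 0.0738 for Pdha1 and 0.0699 for Pdk1. None was called without sham RV library 1, 3 or 4 or without sham LV library 1 or 3, where the adjusted p of Mpc2 was 0.0526 to 0.0863. Because the sham libraries also enter the banding effects, these values are no independent support for them.

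In banded mice no member was called between ventricles (0 of 9, against 1.57% of all genes, 0.182% up and 1.39% down). At an unadjusted p under 0.05 on both scales 4 were lower in the RV than in the LV, namely Mpc1 at -1.59, Mpc2 at -0.77, Pdha1 at -0.62 and Pdhb at -0.58, against 8.70% of all genes lower and 2.57% higher at that threshold. On the deposited values alone Mpc2 (adjusted p = 0.0395, limma) and Pdhb (adjusted p = 0.0462) passed. The groups did not overlap for 3 members, all lower in the RV (Mpc1, Mpc2 and Pdhb), against 8.16% of all genes downward and 2.43% upward. Without sham RV library 2, Mpc2 was called (adjusted p = 0.0171). Pdk1, lower in the RV of sham mice, was at 60.2 ± 15.8 FPKM in banded RV and 59.8 ± 9.22 in banded LV.

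**Figure D4:**
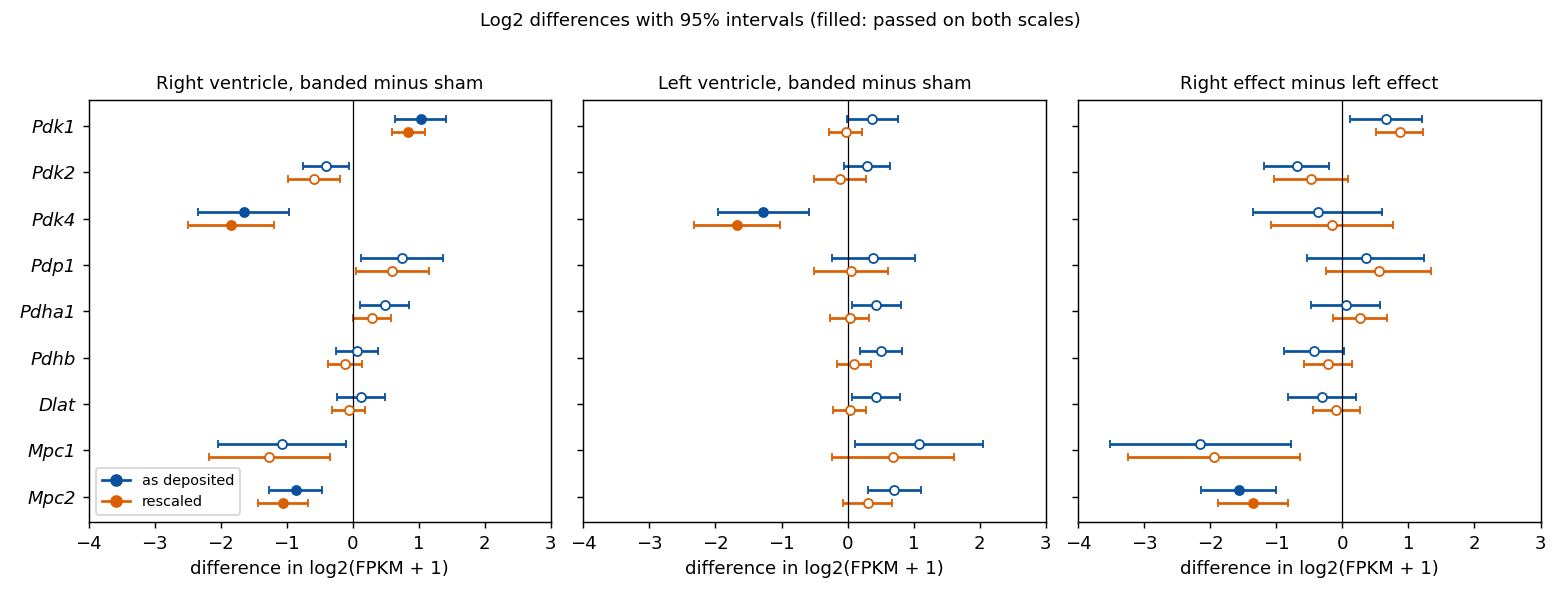
Differences in log2(FPKM + 1) between banded and sham for the 9 tested members in the RV and LV, and the RV effect minus the LV effect, as deposited (blue) and after rescaling (orange), with unadjusted 95% intervals; filled points passed the test on both scales. The filled points are Pdk1, Pdk4 and Mpc2 in the RV, Pdk4 in the LV and Mpc2 in the difference.

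The median difference over the 9 tested members was 0.07 in the RV and 0.43 in the LV, beside 0.26 and 0.33 over all genes tested, and after rescaling -0.12 and 0.03 beside 0.11 and 0.01.

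The genes around the members were grouped by function in 6 lists. Of 4 tested other subunits and phosphatases of the complex none changed in the RV, against 15.5% of all genes. Pdhx, the E3-binding protein, differed by 0.27 (adjusted p = 0.242, limma) and the phosphatase regulator Pdpr by 0.41 (adjusted p = 0.310). The second phosphatase catalytic subunit Pdp2 differed by -0.68 (adjusted p = 0.0804, limma, and 0.0202 after rescaling). Of 11 genes of lipoate and thiamine supply, 2 fell and none rose, against 4.93% of all genes down. Glrx5, of iron-sulfur cluster assembly, went from 68.7 ± 21.2 to 40.5 ± 3.91 FPKM (adjusted p = 0.0350, limma). Lipt1 differed by 0.12 and Slc19a2 by 0.44, and neither passed.

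Of 7 genes of the other 2-oxoacid dehydrogenases 3 fell in the RV and none rose, against 4.93% of all genes down and 10.5% up. These were Bckdha, Bckdhb and Bckdk of the branched-chain complex. Bckdha, its E1 alpha subunit, went from 256 ± 30.6 to 129 ± 21.9 FPKM (adjusted p = 0.00212, limma) and its kinase Bckdk from 36.0 ± 2.08 to 22.9 ± 6.55 (adjusted p = 0.0247), while Dbt differed by 0.10. Of 15 other pyruvate and lactate genes 3 fell (Gpt, Ldhb and Pcx, pyruvate carboxylase) and 1 rose, against the same shares of all genes. Gpt, alanine aminotransferase, fell from 50.3 ± 7.99 to 12.9 ± 1.63 FPKM (adjusted p = 0.000284) and Ldhb, the heart-type lactate dehydrogenase subunit, from 656 ± 79.2 to 388 ± 33.3 (adjusted p = 0.00395). Slc16a3, the lactate exporter MCT4, rose from 1.54 ± 1.55 to 4.22 ± 0.465 (adjusted p = 0.0211), whereas Slc16a1 differed by 0.45 (adjusted p = 0.149).

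Of 14 transcriptional regulators of the kinases, 1 rose and 1 fell in the RV, a share near the 15.5% of all genes. Hif1a, the oxygen-regulated factor, rose from 2.97 ± 1.25 to 8.98 ± 2.73 FPKM (adjusted p = 0.00458, limma) and Esrra, the estrogen-related receptor alpha, fell from 90.7 ± 11.04 to 50.9 ± 8.24 (adjusted p = 0.00230). Esrrg differed by 0.63 (adjusted p = 0.122) and Klf15 by -0.48 (adjusted p = 0.152). Of 16 known PPAR target genes, a list to which Pdk4 itself would belong, 9 fell and none rose, against 4.93% of all genes down. Ucp3, a mitochondrial uncoupling protein, went from 25.2 ± 5.97 to 5.16 ± 1.68 FPKM (adjusted p = 3.0e-05) and Acot1, an acyl-CoA thioesterase, changed by -2.12 (adjusted p = 0.000153), while Cd36 differed by 0.28 and Plin2 by 0.33. The median of the list was -0.57 in the RV and 0.10 in the LV, beside 0.26 and 0.33 over all genes. After rescaling it was -0.76 in the RV and -0.25 in the LV, beside 0.11 and 0.01 over all genes. In the same RV comparison 2 of 7 cardiomyocyte markers fell and none rose, 2 of 6 fibroblast markers (Col1a1 and Ddr2) rose and none fell, and all 4 tested islet markers fell. Of the mural markers 2 of 5 rose, of the endothelial markers 1 of 5 and of the macrophage markers 1 of 6, while 2 of 4 mesothelial, 2 of 5 atrial and 1 of 3 erythroid markers fell. Over all genes 10.5% rose and 4.93% fell. In the LV 2 of 7 cardiomyocyte, 1 of 3 erythroid and 1 of 4 mesothelial markers rose. Also there, 1 of 5 atrial and 1 of 4 islet markers fell, against 2.44% of all genes up and 0.298% down. The part of these markers in these results was not tested.

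Of 15 other pyruvate and lactate genes 1 rose and 1 fell in the LV, the lactate dehydrogenase genes Ldha (1.03) and Ldhd (-0.87). Among 14 transcriptional regulators of the kinases 1 fell there, the coactivator Ppargc1b (-0.87), and none rose. These genes were named after their values were seen. The 4 other subunits and phosphatases, 11 lipoate and thiamine genes and 7 other 2-oxoacid dehydrogenase genes had no call there. None of the 16 PPAR targets was called in the LV either, and Pdk4 was called. These counts stand against 2.44% of all genes up and 0.298% down. With so few genes called in the LV, a count of 0 does not set this list apart. Of the named targets, Ucp3 differed there by -0.39 as deposited (adjusted p = 0.228, limma) and by -0.77 after rescaling (adjusted p = 0.0274). After rescaling Acot1 differed by -0.65 (adjusted p = 0.141), Cd36 by 0.0039 and Plin2 by 0.098. For 5 of the 16 PPAR targets the RV effect minus the LV effect was called, each negative, against 3.45% of all genes down. Among them were Ucp3 (-1.71, adjusted p = 0.00300, limma) and Acot1 (-1.66, adjusted p = 0.0126). For Pdk4 that difference was not called.

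**Figure D5:**
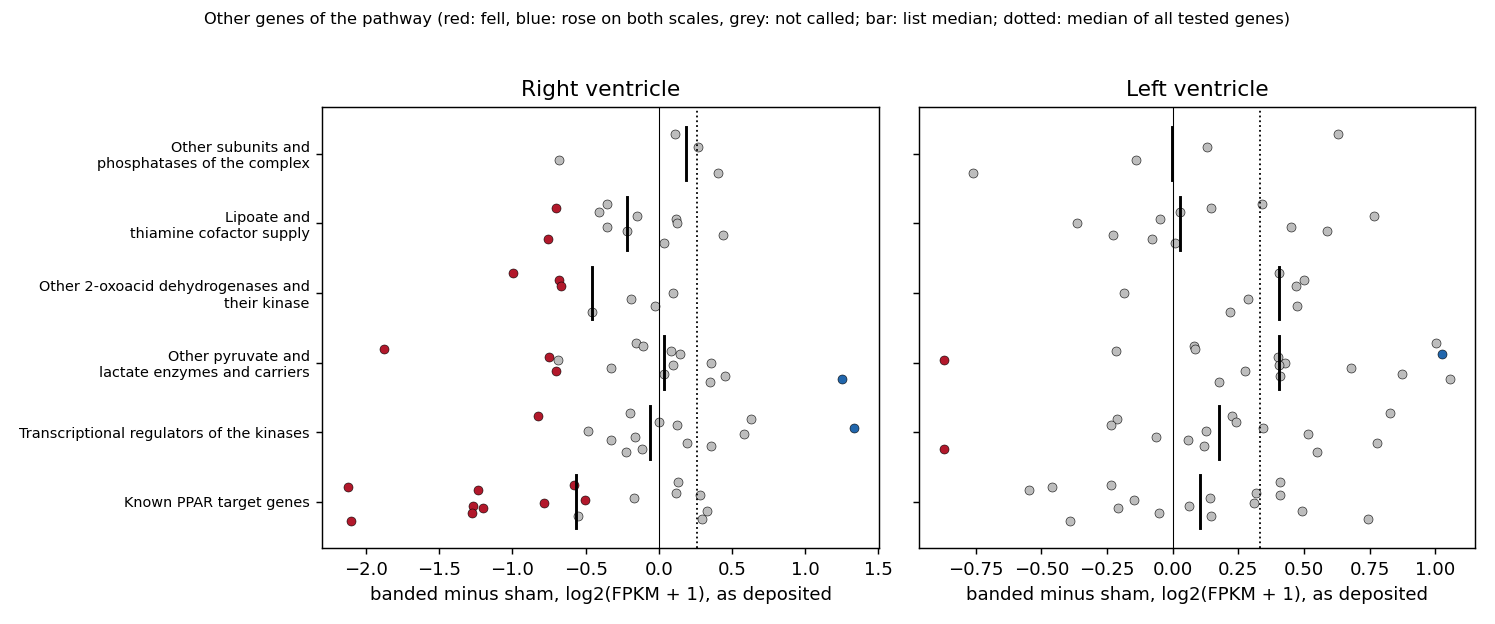
Differences in log2(FPKM + 1), banded minus sham, for each tested gene of the 6 lists in the RV (left panel) and LV (right panel, with its own scale); red points fell and blue points rose on both scales, grey points were not called, bars are list medians and the dotted line is the median of all tested genes. In the RV the PPAR targets have 9 red points and no blue one.

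Over the 16 libraries the rescaled log2 values of Pdk1 were most like those of Stt3b (Pearson r = 0.96), Dlg1 and Il6st, and those of Mpc2 most like Atp5e (0.97), Lamtor4 and Uqcrfs1, among 6660 genes compared. Pdk4 had less close neighbours than Pdk1 and Mpc2, namely Hadh (0.85), Trim7 and Ppip5k2. Its r with Hadh was 0.32 once group means were removed, against 0.83 for Pdk1 with Stt3b and 0.88 for Mpc2 with Atp5e. For the others the nearest gene was Tecr for Pdk2 (0.91), Scrn3 for Pdp1 (0.92), Cmya5 for Pdha1 (0.93) and Tec for Mpc1 (0.87). It was Phyh for Pdhb (0.83) and Ogdh for Dlat (0.82), both less close than Hadh to Pdk4. Among the members themselves Pdp1 and Pdha1 were the most alike (0.81) and Pdk1 and Mpc2 the most opposed (-0.76, and -0.12 within groups). These are descriptions: the points share libraries, depth and group differences, and no p was computed.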

How the data were processed

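The deposited values are FPKM per gene in 1 table with a column for each of 16 libraries. Per the submitters' processing notes, FastQC 0.11.5, STAR 2.5.3a, Cufflinks 2.2.1, Cuffdiff, R 3.3.1 and mm9 were used; filters and the annotation are not given in the sources used here. FPKM hold no counts, so depth was estimated from the smallest FPKM steps of 4118 genes with a single transcript in GENCODE M21, with an assumed fragment of 200 bases, and turned into fragments per member over its longest protein-coding transcript, and no count test was run.

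The 12100 genes that reached 1 FPKM in 4 or more of the 16 libraries entered 1 limma 3.58.1 fit (R 4.3.3) of log2(FPKM + 1) with 4 group means and a trended prior, and p-values were adjusted by Benjamini-Hochberg over all tested genes. The fit was repeated on FPKM divided by a median-ratio factor from 8211 genes. Ratios were tested by exact permutation (scipy 1.17.1). The fit was tested on simulated data. All members, and per pathway list up to 4 genes with the smallest RV p-values (up to 2 per direction), were named. The named neighbours were the 3 most correlated genes with a mean of at least 5 FPKM. Alternatives covered scaling, pseudocount, filter, weights, samples in the fit, replicate block and each library left out. The members, lists and tests were chosen with earlier results of these data known. Promoter entries from RefSeq matched all members but Pdp1. Some genes that the naming rule or a short count would name are not reported here.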

Additional observations from a re-analysis of the deposited data

Results flagged for a closer look

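Mpc2 differed between ventricles in its response to banding, by -1.57 on the log2 scale (RV effect minus LV effect), as given above. Among 64 groups of 4 library values checked with Dixon's test for a value far from the rest, 3 stood out, and chance alone marks about 1 in 20 groups. Pdk3 was at 0.874 FPKM in sham RV library 3 and listed at 0 in the other 3. The ratio of summed kinases to Pdha1 was 1.41 in banded LV library PS_9564 and 0.996 to 1.05 in the others. The ratio of Pdha1 to Pdhb was 2.23 in sham LV library 4 and 2.12 in each of the others. The causes were not tested.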

How the results depend on the processing

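The RV calls of Pdk1 and Pdk4 held in all 29 alternatives and that of Mpc2 was lost only with TPM scaling. Over the 57 values followed and the counts of calls, 1534 of 1701 recomputed entries stayed the same. For a value this means the same direction and side of the threshold, and for a count a similar size. The 1701 include fits without a library from outside the comparison, where the difference could not move, and ratios that could not reach the threshold. The share that stayed the same is therefore no measure of stability. Of the rest, 60 changed sign, none of them a called value, and for these and the counts below the cause was not tested. The number of members called in the RV (3) was 6 with TPM scaling and 3 to 5 with 1 library left out. In the LV (1) it was 0 with TPM scaling, 0 with only libraries with an Rn45s value (where 1 banded LV library is left) and 3 on the deposited values alone, and 0 to 1 with a library left out. For the difference between ventricles (1) it was 2 on rescaled values alone, 2 with quantile normalization, 0 with only Rn45s libraries (the same 1 library), 2 after rescaling with a correction for transcript length and GC, and 1 to 2 with a library left out. For RV against LV in sham mice (3) it was 5 with TPM scaling, where Mpc2 was lost (adjusted p = 0.501), 2 with only Rn45s libraries, where Mpc2 was lost (adjusted p = 0.0520), 1 without the filter, 0 with only sham libraries, and 0 to 3 with a library left out. In banded mice (0) it was 3 with library weights, 2 on the deposited values alone, and 0 to 1 with a library left out. The deposited-values-only and length-and-GC alternatives were added after seeing the data. With a library left out, no ratio could reach the threshold, so those tests say nothing about stability, and neither do the counts of 0 that rest on 1 banded LV library. Depth limits Pdk3, Pdp1 and Mpc1 most, with few estimated fragments in the shallowest libraries.

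Same-numbered RV and LV libraries did not deviate together. In 8 such pairs the correlation of deviations ran from -0.09 to 0.15, above 0.1 in 1 pair, and 1 library correlated best with its own number, so numbers were not taken as pairing. With library number as a replicate block, 2 members (Mpc1 and Mpc2) were called for the difference between ventricles, 0 in sham and 0 in banded mice between ventricles.

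Values that changed sign were as follows. In the RV, Pdhb and Dlat were -0.12 and -0.0591 on rescaled values, -0.16 and -0.14 with only Rn45s libraries and -0.10 and -0.22 with the length and GC correction, and Pdk2 was 0.10 with TPM scaling. In the LV, Pdk1 and Pdk2 were -0.0279 and -0.11 on rescaled values; with quantile normalization Pdk1, Pdk2, Pdha1, Pdhb and Dlat were -0.14, -0.37, -0.23, -0.15 and -0.0816; Pdp1 was -0.0276 with only Rn45s libraries; and with the length and GC correction Pdk2, Pdp1, Pdha1 and Pdhb were -0.0428, -0.0784, -0.0818 and -0.0645. For the difference between ventricles, Pdk2, Pdk4, Pdhb and Dlat were 0.0027, 0.32, 0.26 and 0.38 with TPM scaling and 0.0633, 0.16, 0.20 and 0.17 with quantile normalization, Pdha1 was -0.0808 with library weights and Pdk4 0.0585 with only Rn45s libraries. Between ventricles in sham mice, Pdk2, Pdk4 and Mpc1 were -0.42, -0.51 and -0.0052 with TPM scaling, Pdk2 and Pdk4 -0.13 and -0.17 with quantile normalization, and Pdk2 and Dlat -0.16 and 0.0872 with the length and GC correction. In banded mice, Pdk1 was 0.14 on rescaled values, 0.10 with TPM scaling, 0.29 with quantile normalization, 0.0325 with only Rn45s libraries and 0.0947 with the length and GC correction, and Pdk4 was 0.13 with only Rn45s libraries. With 1 library left out, the ranges that crossed 0 were -0.057 to 0.20 for Pdhb in the RV, -0.0172 to 0.26 for Dlat in the RV, -0.0664 to 0.16 for Pdha1 for the difference between ventricles, -0.0294 to 0.24 for Pdk4 between sham ventricles, -0.10 to 0.0464 for Dlat between sham ventricles, -0.16 to 0.11 for Pdk1 between banded ventricles, -0.65 to 0.43 for the log2 ratio of Mpc1 to Mpc2 in the RV, -0.32 to 0.0231 for the log2 ratio of Pdk2 to Pdha1 in the LV and -0.13 to 0.0366 for the log2 ratio of Pdha1 to Pdhb in the LV.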
